A study of Mus musculus with 16 samples.

Results

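Described here are 10 genes of muscle fuel use, taken by name from the 19108 gene symbols measured in every library: Ucp3, the pyruvate dehydrogenase kinases Pdk4 and Pdk2, and 7 genes of mitochondrial fatty acid oxidation (Cpt1b, Cpt2, Acadl, Acadm, Acadvl, Hadha and Etfdh). All 10 were found and all passed the filter on low counts. The mice carried an additional Ant1 gene (genotype ANT1(Tg)/+, called Tg) or were wild type (WT). There were 4 WT females, 4 Tg females, 4 WT males and 4 Tg males, each giving 1 library from snap-frozen quadriceps. All 16 were C57BL/6 mice aged 6 months on regular chow. Controls were littermates only where that was possible, and no label ties a Tg mouse to a littermate. The promoter that drives the transgene is not given in the sources used here. The p-values measure the spread between these mice, and in a piece of whole muscle fewer cells of a type and less RNA per cell cannot be told apart.

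Slc25a4 is the present symbol of Ant1, the adenine nucleotide translocase that lets ATP out of the mitochondrial matrix in return for ADP. Its difference between Tg and WT, averaged over the sexes, was 1.53 on the log2 scale (SE 0.08, adjusted p = 4.89e-10, edgeR quasi-likelihood test), and counts per gene symbol do not separate the transgene from the mouse's own gene. Total counts per library, in units of 1000000, were 17.4 to 30.7. The summed level of 6 genes that define skeletal muscle was 107840 to 194710 counts per 1000000 counts (CPM) in all 16 libraries. Its mean was 162490 ± 21981 CPM in WT and 131330 ± 23576 CPM in Tg (SD, n = 8). The sum includes the myosin gene Myh4, itself called lower in Tg, so it does not measure muscle content alone. Of the 13666 genes tested in the averaged comparison, 30.4% were called at an adjusted p under 0.05, with 17.2% higher and 13.3% lower in Tg. Brown fat markers set 3 libraries apart: Ucp1, the uncoupling protein of brown fat, stood at 143 CPM in WT female 1, 153 CPM in WT female 2 and 252 CPM in Tg female 4, against at most 0.762 CPM in the other 13. The averaged differences of the 10 genes are given with and without these 3 libraries. Other results include them unless stated.

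Muscle burns fatty acids or glucose according to supply. Cpt1b, on the outer mitochondrial membrane, couples long-chain fatty acids to carnitine, and Cpt2, on the inner membrane, returns them to coenzyme A. Inside the mitochondrion the acyl-CoA dehydrogenases Acadvl, Acadl and Acadm open each round of beta-oxidation for very long, long and medium chains. Hadha is the alpha subunit of the trifunctional protein, which carries out later steps of the cycle, and Etfdh passes the dehydrogenases' electrons to ubiquinone. Pdk4 and Pdk2 phosphorylate and switch off the pyruvate dehydrogenase complex, which limits the entry of glucose carbon into the citric acid cycle. Pdk4 is known to rise with fasting and fatty acid supply. Ucp3 is a carrier of the inner membrane, found mainly in skeletal muscle and brown fat, whose gene is known to respond to fatty acids and to the nuclear receptors named PPARs.

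In Tg muscle Ucp3 and Pdk4 were lower, Pdk2 was higher, and no difference was called for the 7 genes of the carnitine shuttle and beta-oxidation. Ucp3 was 2.05-fold lower, Pdk4 1.71-fold lower and Pdk2 1.2-fold higher in the averaged comparison. The count of 3 called genes of 10 stood beside a background of 30.4% of all tested genes, so the share called is no larger than in the transcriptome as a whole. The median log2 difference of the 10 genes was 0.003, against -0.012 over all tested genes. In females the same 3 genes were called (background 17.7%, with 10.1% higher and 7.57% lower). In males edgeR called 0 of 10 (background 18.2%, with 9.85% higher and 8.39% lower), with 2 at an unadjusted p under 0.05, 1 called by DESeq2 and 0 by limma-voom. Over both sexes 0 of the 10 genes separated all Tg from all WT libraries, against 7.92% of tested genes.

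**Figure D1:**
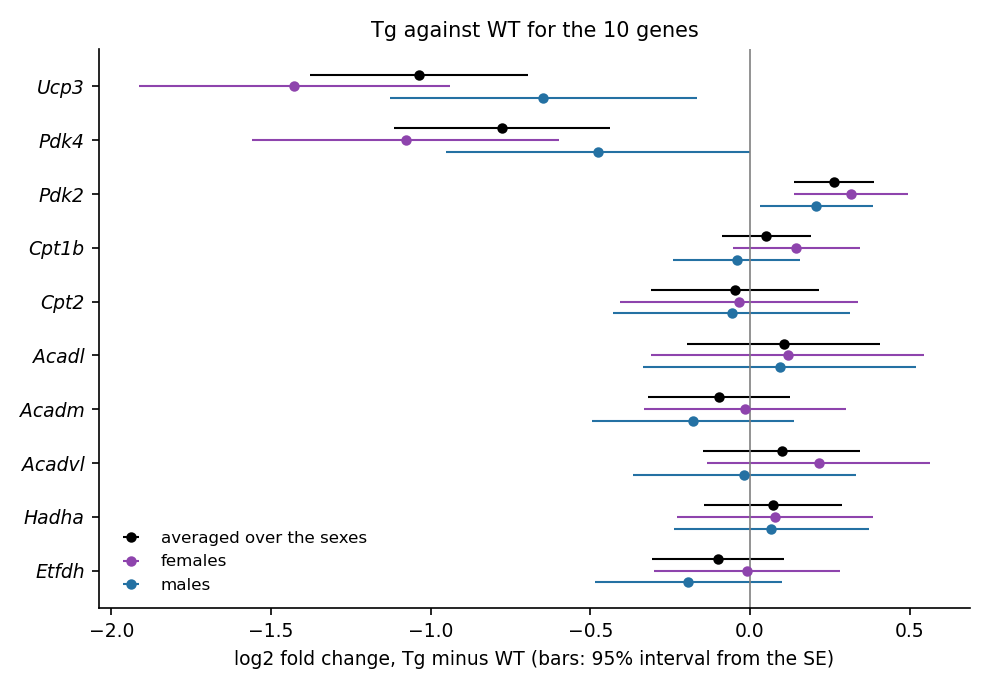
Log2 fold change of Tg against WT (x axis) for each of the 10 genes (y axis), averaged over the sexes (black), in females (purple) and in males (blue). Bars are nominal 95% intervals computed from the SE with the normal multiplier, which are narrower than the F test implies. The averaged intervals of Ucp3 (-1.38 to -0.70) and Pdk4 (-1.12 to -0.44) lie below 0, that of Pdk2 (0.14 to 0.39) lies above 0, and those of the other 7 genes include 0.

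Ucp3 (ENSMUSG00000032942.14) lies on chromosome 7 from 100472990 to 100486432 on the plus strand of build mm10. Its level was 249, 227, 437 and 258 CPM in the 4 WT females and 141, 88.6, 89.8 and 116 CPM in the 4 Tg females. The groups did not overlap in females: even the highest Tg female was below the lowest WT female. Tg females were all below WT females for 7.22% of tested genes. In males the levels were 238, 195, 273 and 170.1 CPM in WT and 150.3, 192, 106 and 111 CPM in Tg. Here Tg male 2 was above WT male 4, and the other 3 Tg males were below every WT male. Over both sexes the mean was 256 ± 80.5 CPM in WT and 124 ± 35.1 CPM in Tg (SD, n = 8 each), and 7 of 8 Tg libraries were below all 8 WT libraries.

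The averaged log2 difference of Ucp3 was -1.04 (SE 0.17, adjusted p = 0.000386), and the 95% interval of the fold ran from 0.385 to 0.617. In females it was -1.43 (SE 0.25, adjusted p = 0.00125), or 2.69-fold lower. In males it was -0.65 (SE 0.24, adjusted p = 0.0846), or 1.57-fold lower, and was not called. The male effect minus the female effect was 0.78 (SE 0.35, adjusted p = 0.645), so a difference between the sexes was not shown. That test called 1 of 13666 genes, or 0.00732% (80 with DESeq2, 1 with limma-voom, 1015 at an unadjusted p under 0.05). The male value passed the threshold without Tg male 2, at -0.84 (adjusted p = 0.0344), without WT female 3 (-0.65, adjusted p = 0.0389) and with DESeq2 (-0.68, adjusted p = 0.0231). Without the 3 libraries with Ucp1 the averaged difference was -1.19 (adjusted p = 0.00105).

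Pdk4 (ENSMUSG00000019577.6) lies on chromosome 6 from 5483351 to 5496309 on the minus strand. In females it stood at 1192, 1781, 2354 and 1431 CPM in WT and at 924, 695, 829.6 and 750.03 CPM in Tg. No Tg female reached the lowest WT female, and WT female 3 was the highest library for Pdk4, as it was for Ucp3. In males the levels were 1547, 1146, 1239 and 1069 CPM in WT and 1369, 903, 557 and 765 CPM in Tg. Tg male 1 lay within the WT range and the other 3 Tg males were below it. Over both sexes Pdk4 averaged 1470 ± 428 CPM in WT and 849 ± 241 CPM in Tg (SD, n = 8 each), and 7 of 8 Tg libraries were below every WT library.

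On the log2 scale the averaged difference of Pdk4 was -0.78 (SE 0.17, adjusted p = 0.00292), with a 95% interval of the fold from 0.461 to 0.737. It was -1.08 (SE 0.25, adjusted p = 0.00707) in females and -0.48 (SE 0.24, adjusted p = 0.209) in males. The difference between these effects, 0.60 (SE 0.34, adjusted p = 0.738), was not called. Without Tg male 1 the male value was -0.75 (adjusted p = 0.0328). Without the 3 libraries with Ucp1 the averaged difference was -0.86 (adjusted p = 0.00723).

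Pdk2 (ENSMUSG00000038967.13) lies on chromosome 11 from 95026258 to 95041354 on the minus strand and moved the other way. In females its level was 410.2, 367, 350 and 465 CPM in WT and 521, 517, 487 and 457 CPM in Tg. Tg female 4 was below WT female 4, so the groups overlapped, while the other 3 Tg females were above all WT females. In males it was 436, 452, 479 and 444 CPM in WT and 507, 583, 496 and 505 CPM in Tg. Every Tg male was above every WT male, a pattern shown by 14% of tested genes. Across the sexes the mean was 425 ± 46.2 CPM in WT and 509 ± 36.1 CPM in Tg (SD, n = 8 each), with 7 of 8 Tg libraries above all 8 WT libraries.

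For Pdk2 the averaged log2 difference was 0.26 (SE 0.06, adjusted p = 0.0053), and the fold interval ran from 1.10 to 1.31. In females it was 0.32 (SE 0.09, adjusted p = 0.0249) and in males 0.21 (SE 0.09, adjusted p = 0.135). The male minus the female effect was -0.11 (SE 0.13, adjusted p = 0.884). The female value passed the threshold no longer without WT female 2 (0.28, adjusted p = 0.0574), WT female 3 (0.26, 0.0699), Tg female 1 (0.29, 0.0701), Tg female 2 (0.30, 0.0681) or the 3 libraries with Ucp1 (0.31, 0.0976). Without those 3 libraries the averaged difference was 0.24 (adjusted p = 0.0246).

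**Figure D2:**
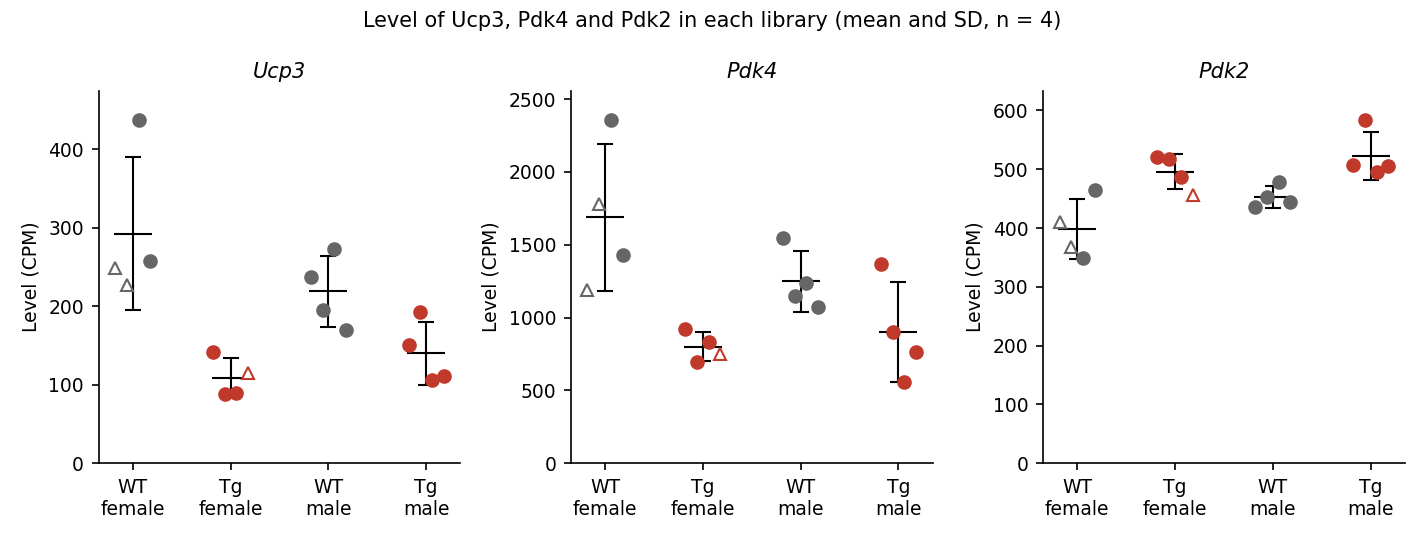
Level in CPM (y axis, from 0) of Ucp3, Pdk4 and Pdk2 in each library of the 4 groups (x axis), with the mean as a bar and the SD (n = 4); triangles are the 3 libraries with Ucp1 above 100 CPM. Ucp3 and Pdk4 do not overlap between WT and Tg females, and Pdk2 does not overlap between WT and Tg males.

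Slow and oxidative fibre markers also differed between the genotypes. Of 10 such markers 7 were called higher in Tg and 0 lower (background 17.2% and 13.3%), with a median log2 difference of 2.71 against -0.012 for all tested genes. Myh2, on this list, was not called, at 1.64 (adjusted p = 0.0541). Mb, the myoglobin gene, was not on this list and was at -0.91 (adjusted p = 0.125). In females 5 of the 10 markers were called higher (median 3.47, background 10.1%) and in males 1 (median 1.77, background 9.85%). Their summed level was 157 to 2539 CPM in WT and 863 to 4080 CPM in Tg, and Myl2, Myl3 and Tnnc1 were at 0 in at least 1 WT library. DESeq2 also called 7 of these markers and limma-voom 3. Of the called markers, Myh7, Tnnt1, Tnni1, Tnnc1 and Myl3 had an SD in Tg above their mean, so these means lean on the highest library. Tg female 2 had the most of the markers other than Myh2: the 10 summed to 2778 CPM with Myh2 at 1596 CPM. In the other Tg libraries Myh2 made up nearly all of the sum, such as 2507 of 2726 CPM in Tg female 3. Results for these markers without Tg female 2 are not given here. Myh7 was 56.1 ± 142 CPM in Tg, with a range from 0.974 to 408, against a WT mean of 1.60. Tnni1 was 8.38 ± 18.2 CPM in Tg, with a range from 0.804 to 53.3. Casq2 and Myoz2 spread less, at 34.7 ± 10.1 and 51.9 ± 21.1 CPM in Tg (SD, n = 8). Of 8 fast glycolytic fibre markers, 1 was called higher and 2 lower (background 17.2% and 13.3%), with a median log2 difference of -0.241. Myh4, the myosin of fast IIb fibres, fell from 92045 ± 14532 to 64100 ± 12970 CPM (SD, n = 8). Myh1, the myosin of IIx fibres, rose from 3238 ± 1740 to 6724 ± 1400 CPM (SD, n = 8). Tnnt3 was also called lower, at -0.33 (adjusted p = 0.0153). With the mean of the slow and oxidative markers as a covariate, Ucp3 was at -0.64 (adjusted p = 0.0473) and Pdk2 at 0.31 (adjusted p = 0.0384). Pdk4 was no longer called, at -0.76 (adjusted p = 0.062). In females alone none of the 3 passed the threshold with that covariate (Ucp3 -0.90, adjusted p = 0.0728; Pdk4 -1.06, adjusted p = 0.0867; Pdk2 0.37, adjusted p = 0.102).

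Pdk4 and Pdk2 catalyse the same reaction, so their transcripts were also compared within each library, per kilobase of the principal transcript. The level per kilobase was 422 ± 123 for Pdk4 and 189 ± 20.6 for Pdk2 in WT, and 244 ± 69.0 and 227 ± 16.1 in Tg (SD, n = 8). The ratio of Pdk4 to Pdk2 was 1.87, 3.13, 4.34 and 1.98 in WT females and 1.14, 0.867, 1.10 and 1.06 in Tg females. It was 2.29, 1.63, 1.67 and 1.55 in WT males and 1.74, 0.998, 0.724 and 0.976 in Tg males. Pdk4 was above Pdk2 in all 8 WT libraries, and the ratio was lower in 7 of 8 Tg libraries than in any WT library, Tg male 1 being the exception. The mean ratio was 2.31 ± 0.965 in WT and 1.076 ± 0.300 in Tg (SD, n = 8), given without a test because both genes were already tested. With the length of all annotated exons in place of the principal transcript the means were 3.23 and 1.5, so the size of the ratio depends on the length used. The other kinases of the family were lower: Pdk1 averaged 15.7 and Pdk3 0.263 CPM per kilobase in WT.

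**Figure D3:**
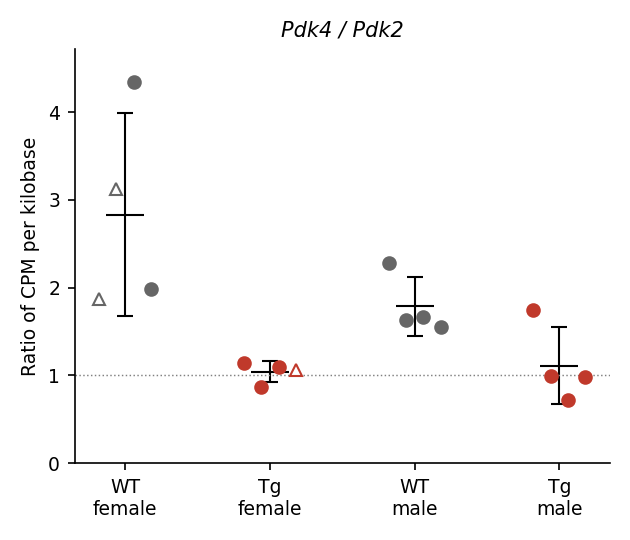
Ratio of Pdk4 to Pdk2 in CPM per kilobase of the principal transcript (y axis, from 0) in each library of the 4 groups (x axis), with the mean and SD (n = 4); the dotted line marks equal levels and triangles are the 3 libraries with Ucp1. The Tg females sit between 0.867 and 1.14, below all WT females, and Tg male 1 at 1.74 lies within the range of the WT males.

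The bases just upstream of the start of the 3 genes that were called are shown next, to set the fatty acid responsive Ucp3 and Pdk4 beside Pdk2. They come from the RefSeq promoter table of build GRCm38.p6 and are written 5′ to 3′ on the gene's strand. Capitals mark AGGTCA, the hexamer that nuclear receptors such as the PPARs bind, on either strand. The stretches are chr7:100472741-100472989 (plus strand) for Ucp3, chr6:5496310-5496528 (minus strand) for Pdk4 and chr11:95041372-95041621 (minus strand) for Pdk2.
Ucp3: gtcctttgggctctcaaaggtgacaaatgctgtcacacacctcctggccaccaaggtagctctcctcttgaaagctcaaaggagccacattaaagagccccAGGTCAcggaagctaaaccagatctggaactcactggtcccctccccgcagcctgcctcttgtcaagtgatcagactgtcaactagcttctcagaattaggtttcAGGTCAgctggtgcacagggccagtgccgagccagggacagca
Pdk4: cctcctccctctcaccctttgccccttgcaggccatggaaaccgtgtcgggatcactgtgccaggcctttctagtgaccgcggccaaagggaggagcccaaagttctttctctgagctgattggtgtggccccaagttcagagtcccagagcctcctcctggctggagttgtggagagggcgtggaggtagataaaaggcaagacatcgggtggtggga
Pdk2: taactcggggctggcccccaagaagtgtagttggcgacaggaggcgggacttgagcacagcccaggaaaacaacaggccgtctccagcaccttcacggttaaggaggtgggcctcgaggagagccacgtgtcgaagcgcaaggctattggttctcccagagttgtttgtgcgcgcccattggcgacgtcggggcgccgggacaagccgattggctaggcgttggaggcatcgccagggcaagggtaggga

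In the windows of 250 bases before to 50 after the start, Ucp3 held AGGTCA at -149 and -44 from the start, on the gene's strand. Pdk4 and Pdk2 held none. Among the other genes of the set with a window, Acadvl held it at -87 and Acadm held its reverse complement at -249, and neither was called. In all, 9 of the 10 genes matched the table (Cpt1b did not), and 3 of the 9 held the hexamer, which occurs in 16.3% of the 32851 windows. Also searched on both strands were the PPAR element, a direct repeat of AGGTCA with any 1 base between (0.0396% of windows), the estrogen-related receptor element TNAAGGTCA (1.28%), the FOXO element TGTTTAC (3.65%) and the ATF4 element TGATGNAA (3.97%). The first 2 of these contain the hexamer. None of the 4 was found in the windows of the 9 genes, which says only that these letters are not in these windows. Base composition differed: GC content was 55.0% for Ucp3, 60.7% for Pdk4 and 64.7% for Pdk2, and the ratio of observed to expected CpG was 0.222, 0.436 and 0.817. These values are for the Pdk2 window printed above; a second Pdk2 window in the table, which held none of the motifs either, had 57.7% GC and a CpG ratio of 0.601.

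For the carnitine shuttle, Cpt1b (chromosome 15, 89416405 to 89425863, minus strand) stood at 305 ± 40.1 CPM in WT and 316 ± 16.4 CPM in Tg (SD, n = 8). The 4 WT females were at 303, 308, 222 and 309.8 CPM and the 4 Tg females at 326, 332.5, 306 and 298.5 CPM. WT males were at 315, 370.1, 309 and 306 CPM and Tg males at 334, 321, 288 and 321 CPM. The groups overlapped in both sexes, and WT female 3 was the lowest library. The averaged log2 difference was 0.05 (SE 0.07, adjusted p = 0.623), with a 95% interval from -0.09 to 0.19. Cpt1b shares 2744 exonic bases on the same strand with the readthrough gene Gm44502, which had 1.87 to 9.38 CPM, so reads could be split between them. Cpt1a, the liver form of the same enzyme, averaged 4.32 CPM per kilobase in WT against 105 ± 13.8 for Cpt1b (SD, n = 8), and the ratio of Cpt1b to Cpt1a was 25.1 ± 5.66 in WT and 26.3 ± 4.48 in Tg.

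Cpt2 (chromosome 4, 107903981 to 107923610, minus strand) averaged 65.3 ± 15.7 CPM in WT and 63.3 ± 10.3 CPM in Tg (SD, n = 8). In females it was 81.6, 91.9, 45.6 and 56.5 CPM in WT and 60.4, 60.2, 60.9 and 87.8 CPM in Tg. The 3 highest of these 8 libraries were those with Ucp1. In males it was 71.7, 66.6, 53.6 and 54.6 CPM in WT and 63.9, 60.9, 54.2 and 57.8 CPM in Tg. The averaged log2 difference was -0.05 (SE 0.13, adjusted p = 0.822, 95% interval -0.31 to 0.22), and without the 3 libraries it was 0.07 (adjusted p = 0.564).

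The acyl-CoA dehydrogenases also overlapped between genotypes. Acadvl (chromosome 11, 70010183 to 70015411, minus strand) was 209 to 396 CPM in WT, with a median of 267, and 235 to 421 CPM in Tg, with a median of 312. Acadl (chromosome 1, 66830839 to 66863277, minus strand) was 173 to 345 CPM in WT, with a median of 219, and 209.7 to 338 CPM in Tg, with a median of 247. Acadm (chromosome 3, 153922357 to 153944632, minus strand) was 217 to 339 CPM in WT, with a median of 258, and 197 to 310.1 CPM in Tg, with a median of 248. Their averaged log2 differences were 0.10 (SE 0.13, adjusted p = 0.589) for Acadvl, 0.11 (SE 0.15, adjusted p = 0.639) for Acadl and -0.10 (SE 0.11, adjusted p = 0.553) for Acadm. The intervals were -0.15 to 0.35, -0.20 to 0.41 and -0.32 to 0.13. Changes in either direction lie within all 3, including some larger in size than the 0.26 of Pdk2. Acadvl shares 1151 exonic bases with Dvl2 on the opposite strand.

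Hadha (chromosome 5, 30118304 to 30155162, minus strand) averaged 343.5 ± 65.4 CPM in WT and 361 ± 49.9 CPM in Tg (SD, n = 8). Its log2 difference was 0.07 (SE 0.11, adjusted p = 0.655, 95% interval -0.14 to 0.29). Etfdh (chromosome 3, 79603788 to 79629500, minus strand) averaged 136 ± 23.8 CPM in WT and 127 ± 19.5 CPM in Tg (SD, n = 8). Its log2 difference was -0.10 (SE 0.11, adjusted p = 0.502, 95% interval -0.31 to 0.11). Neither difference was larger than the spread between libraries.

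The 6 enzymes other than Cpt1b varied from library to library largely in step. In WT males the highest library was WT male 1 for Cpt2, Acadl and Acadm and WT male 2 for Acadvl, Hadha and Etfdh. In Tg males all 6 were highest in Tg male 1. In females each of the 6 was highest in WT female 2 within WT and in Tg female 4 within Tg, which are 2 of the 3 libraries with Ucp1. These also had the highest summed slow and oxidative fibre markers of their groups, at 2539 and 4080 CPM. The defining brown fat genes Cidea and Elovl3 moved with them: Cidea was 58.2, 59.8 and 68.7 CPM in the 3 libraries, 7.89 CPM in WT male 1 and at most 1.61 CPM elsewhere, and Elovl3 was 10.9, 13.7 and 23.2 CPM against at most 0.0446 CPM. The summed level of 7 brown fat markers was 372 to 738 CPM in WT and 441 to 829 CPM in Tg. Most of this sum came from Cpt1b, itself 1 of the 10 genes, and Cox7a1, with WT means of 305 and 158 CPM. Both were high in every library, at no less than 222 and 114 CPM, so the sum does not measure brown fat alone. The summed level of 9 white fat markers was 193 to 3510 CPM in WT and 193 to 1470 CPM in Tg. Neither list had a gene called by edgeR in the averaged comparison (at an unadjusted p under 0.05, 1 brown and 0 white fat markers; by DESeq2, 1 and 0). The part of fat and fibre markers in the enzymes' levels was not tested. Without the 3 libraries the averaged log2 differences were 0.26 for Acadl (adjusted p = 0.109), 0.21 for Acadvl (adjusted p = 0.114) and 0.15 for Hadha (adjusted p = 0.254). They were -0.04 for Acadm (adjusted p = 0.84), -0.03 for Etfdh (adjusted p = 0.813) and 0.09 for Cpt1b (adjusted p = 0.435). The called genes of the set were again Ucp3, Pdk4 and Pdk2 (background 28.4%). When WT male 1, the library with the most Adipoq, an adipocyte hormone, was left out as well, Acadl was also called, at 0.32 (adjusted p = 0.0331), which made 4 of 10 (background 28.5%).

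**Figure D4:**
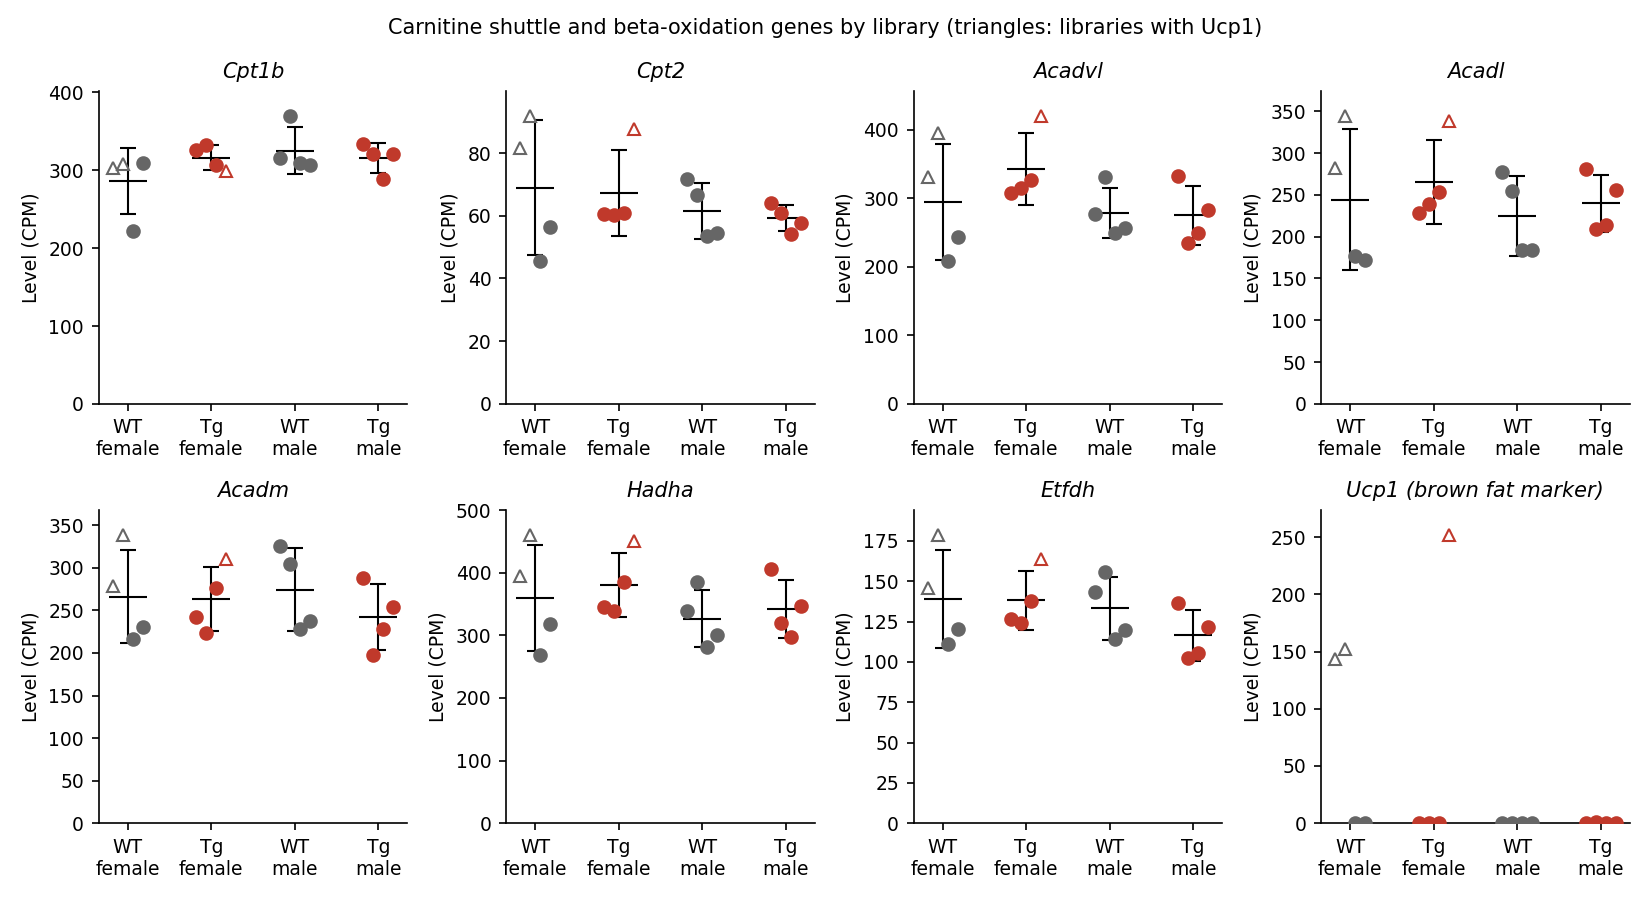
Level in CPM (y axes, from 0) of the 7 carnitine shuttle and beta-oxidation genes and of the brown fat marker Ucp1 in each library of the 4 groups (x axes), with the mean and SD (n = 4; Ucp1 without them). Triangles are WT female 1, WT female 2 and Tg female 4, the libraries with Ucp1 of 143, 153 and 252 CPM, and in females they include the highest library for each of the genes but Cpt1b.

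Taken as deviations from the 4 group means over 16 libraries, the 15 pairs among the 6 enzymes had Pearson's r of 0.813 to 0.977 (Spearman's rho 0.809 to 0.956). In each pair the 2 libraries farthest from the median were then left out, judged only by the gene that comes first in the opening list. Without them r was 0.720 to 0.972. Ucp3 and Pdk4 had r of 0.644 (rho 0.694), and 0.581 without the 2 libraries farthest for Ucp3, WT female 3 and Tg male 2. Those farthest for Pdk4, Tg male 1 and Tg male 3, stayed in. Ucp3 against the 6 enzymes gave -0.422 to -0.274, and -0.085 to 0.005 without the 2 farthest libraries, so that relation rests on those libraries. Pdk4 against them gave -0.079 to 0.173, and -0.376 to -0.043 without the 2 farthest libraries, so the sign there also depends on those libraries. All points share their library, with its depth and tissue make-up, and these values describe these libraries without a test.

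By the same measure, over 11257 genes, the genes most like Ucp3 were Snap29 (r 0.900), Tle1 (0.890) and A530013C23Rik (0.849). Those most like Pdk4 were Mcl1 (0.818), Actr6 (0.818) and Sfpq (0.812). Their own averaged log2 differences between Tg and WT were 0.07 for Snap29, -0.25 for Tle1 (adjusted p = 0.0445), 0.99 for A530013C23Rik (adjusted p = 2.21e-05), 0.11 for Mcl1, 0.05 for Actr6 and 0.05 for Sfpq. The r values are the highest among 11257 genes for Ucp3 and for Pdk4, and they were not recomputed without the farthest libraries.

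Per kilobase, the order of levels in WT was Pdk4, Pdk2, Acadvl, Acadm, Acadl, Cpt1b, Ucp3, Hadha, Etfdh and Cpt2. Pdk4 stood apart at 422 ± 123 CPM per kilobase, and Cpt2 was lowest at 27.5 ± 6.64 (SD, n = 8). From Acadvl (132 ± 28.2) through Acadm (132.0 ± 23.7), Acadl (122 ± 33.5), Cpt1b (105 ± 13.8) and Ucp3 (104 ± 32.9), neighbours differed by less than their SD. In Tg, Ucp3 was at 50.8 ± 14.3 CPM per kilobase, below Hadha. The length of all annotated exons, in place of the principal transcript, moved Acadm from the fourth to the seventh rank, below Cpt1b and Ucp3, moved Acadl from the fifth to the third and put Etfdh last. Between WT males and WT females edgeR called 0 of the 10 (background 3.67%, with 2.01% higher and 1.65% lower in males). DESeq2 and limma-voom also called 0, with 0 at an unadjusted p under 0.05, and the lowest adjusted p was 0.332, for Pdk2.

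The 6 lists of related genes held 82 tested genes, of which 10 were called higher and 13 lower (28%), a share near the background of 30.4%. Among 17 genes of fatty acid uptake, activation and carnitine steps, 0 were called higher and 3 lower, with a median log2 difference of -0.169. Without the 3 libraries with Ucp1 these were 1 higher and 2 lower (median -0.128), and 2 higher and 2 lower (median -0.051) when WT male 1 was left out too. Acsl3, which activates long-chain fatty acids, fell from 34.9 ± 6.33 to 19.1 ± 2.64 CPM (SD, n = 8), a log2 difference of -0.86 (SE 0.11, adjusted p = 1.66e-05). Acsl4, of the same enzyme family, was at -0.37 (adjusted p = 0.0088) and Crat, the carnitine acetyltransferase, at -0.20 (adjusted p = 0.0267). The call of Acsl4 was lost with the slow fibre covariate (-0.28, adjusted p = 0.226) and that of Crat in 9 of 28 alternatives. The fatty acid transporter Cd36 was at -0.05 (adjusted p = 0.904).

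Among 16 other enzymes of beta-oxidation and electron transfer, 4 were called higher and 1 lower (median 0.083). With DESeq2 these were 5 higher and 3 lower, and with the slow fibre covariate 2 higher and 2 lower (median -0.14). Acot2, a mitochondrial thioesterase that frees fatty acids from coenzyme A, rose from 12.5 ± 3.39 to 74.9 ± 12.3 CPM (SD, n = 8), or 2.60 on the log2 scale (SE 0.14, adjusted p = 1.53e-09). Every Tg library (61.3 to 101 CPM) was above every WT library (7.19 to 18.4 CPM). Over all tested genes, 5.23% showed such an increase without overlap. Hsd17b10 was at 0.32 (adjusted p = 0.000416), Eci1, an isomerase for unsaturated chains, at 0.38 (adjusted p = 0.00433) and Acad11 at -0.25 (adjusted p = 0.00587). The call of Eci1 was lost with the slow fibre covariate (0.21, adjusted p = 0.254) and that of Acad11 without TMM scaling (-0.18, adjusted p = 0.13). Hadhb, the partner subunit of Hadha, was at -0.09 (adjusted p = 0.642).

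Among 12 genes of the pyruvate dehydrogenase complex and its regulators, 1 was called higher and 3 lower (median -0.078), or 1 higher and 1 lower without TMM scaling. Pdp1, the phosphatase that reverses the action of the Pdk kinases, rose from 68.8 ± 18.3 to 108 ± 12.96 CPM (SD, n = 8), or 0.65 on the log2 scale (SE 0.12, adjusted p = 0.000512). Pdk1 fell from 81.5 ± 8.75 to 68.1 ± 7.28 CPM (SD, n = 8), or -0.26 (SE 0.05, adjusted p = 0.00118), and was not called without TMM scaling (-0.19, adjusted p = 0.074). Mpc2 and Mpc1, which form the carrier that brings pyruvate into the mitochondrion, were at -0.31 (adjusted p = 0.000573) and -0.18 (adjusted p = 0.0335). The call of Mpc1 was lost in 11 of 28 alternatives. Thus Pdk4 and Pdk1 were lower while Pdk2 and Pdp1 were higher.

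Of 19 regulators of these genes (PPAR, FOXO and estrogen-related receptor factors with their partners), 2 were called higher and 4 lower (median -0.101). The median was -0.021 without the 3 libraries with Ucp1, -0.008 when WT male 1 was left out too and -0.02 with limma-voom, and the slow fibre covariate left 1 higher and 1 lower. Esrrg, an estrogen-related receptor of oxidative muscle, rose from 11.3 ± 7.26 to 65.2 ± 17.5 CPM (SD, n = 8), or 2.52 on the log2 scale (SE 0.35, adjusted p = 0.000112). Rxrg and Rxra, partners of the PPARs on DNA, were at -0.65 (adjusted p = 0.000129) and -0.38 (adjusted p = 0.00094). Lpin1, which acts both as a lipid phosphatase and with PPAR alpha, was at -0.40 (adjusted p = 0.00972). With the slow fibre covariate neither Rxra, at -0.30 (adjusted p = 0.0673), nor Lpin1, at -0.14 (adjusted p = 0.512), was called. The receptors themselves, Ppara (-0.07, adjusted p = 0.867) and Ppard (0.04, adjusted p = 0.761), were not called.

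Of 13 tested PPAR target genes of lipid handling (14 listed), 2 were called higher and 1 lower, with a median of -0.38. Acot1, the cytosolic relative of Acot2, rose from 1.81 ± 0.714 to 6.55 ± 1.01 CPM (SD, n = 8; log2 difference 1.91, adjusted p = 2.88e-07). Acot1 and Acot2 are close paralogs, and reads could be split between them. G0s2, an inhibitor of lipolysis, rose from 8.84 ± 8.26 to 51.7 ± 12.9 CPM (SD, n = 8; log2 difference 2.54, SE 0.51, adjusted p = 0.00202). Vldlr, a lipoprotein receptor, was at -0.52 (SE 0.06, adjusted p = 1.58e-05), with -0.14 in females and -0.90 in males (interaction adjusted p = 0.0572). The median of this list was -0.179 without the 3 libraries with Ucp1. It was 0.247 when WT male 1 was left out too, with 3 higher and 1 lower. Fabp4 is on both this list and that of the white fat markers, and a relation to fat was not tested.

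Among 5 relatives of Ucp3 in the carrier family, Slc25a27 was called higher at 0.31 (adjusted p = 0.00742) and Slc25a30 lower at -0.39 (adjusted p = 0.036), the latter lost in 15 of 28 alternatives. Ucp2, the widely expressed relative, was at -0.26 (SE 0.21, adjusted p = 0.389). Per kilobase of the principal transcript, the ratio of Ucp3 to Ucp2 was 30.5 ± 11.4 in WT and 17.3 ± 5.74 in Tg (SD, n = 8). The ranges overlapped, at 12.4 to 49.8 in WT and 10.1 to 28.0 in Tg, and the ratio was not tested. The lowest WT value was that of WT female 2, a library with Ucp1.

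**Figure D5:**
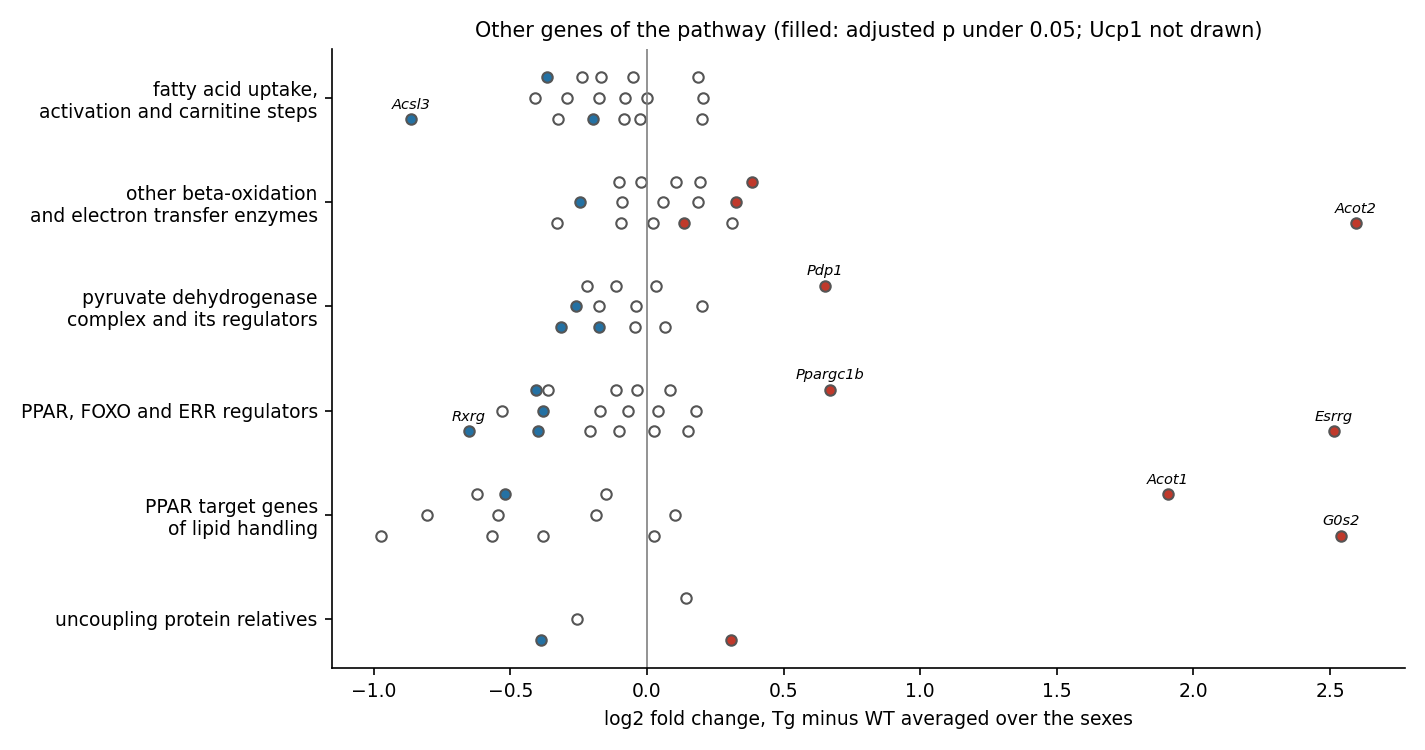
Log2 fold change of Tg against WT averaged over the sexes (x axis) for each tested gene but Ucp1 of the 6 lists of related genes (y axis). Points are filled where the adjusted p is under 0.05 (red higher, blue lower), and names mark the called genes farthest from 0. Ucp1 (0.34, SE 2.94) was tested, was not called and is not drawn. Acot2 (2.60), G0s2 (2.54), Esrrg (2.52) and Acot1 (1.91) lie farthest to the right and Acsl3 (-0.86) is the called gene farthest to the left.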

How the data were processed

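Quadriceps RNA of 16 mice was sequenced as paired-end reads from stranded, poly(A)-selected libraries, per the labels. Per the submitters' processing notes, the tools included cutadapt 1.2.1, bcl2fastq, Bowtie2 and TopHat2, with build mm10. The counting program, annotation and strand setting were not given in the sources used here. The values the authors deposited carry no unit and were taken as estimated counts per gene symbol, because 14.2% are not whole, none is negative and library totals differ (17.4 to 30.7, in units of 1000000). They were rounded, which moved none by more than 0.5.

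Tests used edgeR 4.0.16 (R 4.3.3): filterByExpr (minimum count 10, minimum total 15) left 13666 genes, TMM factors were 0.887 to 1.10, and a group-means model over the 16 libraries was tested with the quasi-likelihood F test (biological coefficient of variation 0.201). The 5 contrasts were Tg minus WT averaged over sexes, in females and in males, their difference, and male minus female in WT. P-values are two-sided and adjusted over all tested genes by Benjamini-Hochberg, with 0.05 as threshold. CPM uses the scaled library sizes. Intervals are nominal 95% intervals from the SE with the multiplier of the normal distribution. They are narrower than the F test implies, so an interval can exclude 0 where the test does not pass 0.05. For Pdk4 in males the log2 interval was -0.95 to -0.00012, while the unadjusted p of the quasi-likelihood F test was 0.0687. Alternatives included DESeq2 1.42.0 and limma-voom (limma 3.58.1). The script was tested on simulated data. Within-group pairs of libraries (24) had r of 0.976 to 0.997 across genes, with a lowest median chi-square of 1.17, and none looked deposited more than once. Positions come from GENCODE M21, in which 18753 symbols (98.14%) matched 1 gene.

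The 10 genes, the gene lists and the tests were chosen with earlier results of these data known. Named genes are the 10, up to 4 called genes per list with the smallest adjusted p, and for Ucp3 and Pdk4 the 3 genes with the highest correlation of deviations (mean log2 CPM of at least 1). Cd36, Hadhb, Ppara, Ppard, Ucp2, Cpt1a and Pdk3 were added for their roles after values were seen. The lists of endothelial, macrophage and fibroblast markers had 0 genes called by edgeR, DESeq2 or limma-voom in the averaged comparison, and 1 endothelial marker had an unadjusted p under 0.05. In females 4 of 5 macrophage markers had an unadjusted p under 0.05, and DESeq2 called 3 of them (median log2 difference -0.952). For 5 fibroblast markers these counts were 2 and 1 (median -0.45). Within females edgeR and limma-voom called 0 of either list, and in males all 3 tools called 0.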

Additional observations from a re-analysis of the deposited data

Results flagged for a closer look

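Among 40 groups of 4 libraries (10 genes in 4 groups), 6 held a library far from the other 3 of its group by Dixon's test, where chance gives about 1 in 20. Ucp3 in WT female 3 was 437 CPM against 227 to 258 CPM in the other WT females. The same library was the lowest for Cpt1b, at 222 CPM against 303 to 309.8 CPM. Cpt1b in WT male 2 was 370.1 CPM against 306 to 315 CPM, and Pdk2 in Tg male 2 was 583 CPM against 496 to 507 CPM. Tg female 4, which had the highest Ucp1, was high for Cpt2 (87.8 CPM against 60.2 to 60.9 CPM) and for Acadvl (421 CPM against 308 to 326 CPM).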

How the results depend on the processing

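No paired analysis was possible because replicate numbers follow only the order of deposition and no label ties mice across groups. Averaged results were recomputed under 28 distinct alternatives and those of the other contrasts under 27, 16 of which leave out 1 library. The planned setting without libraries rich in Adipoq removed WT male 1 only and is counted once. In the averaged comparison Ucp3 and Pdk2 stayed called in all 28 and Pdk4 in all but the slow fibre covariate. Leaving out 1 library gave -1.13 to -0.91 for Ucp3, -0.92 to -0.68 for Pdk4, 0.23 to 0.30 for Pdk2 and -0.12 (without WT female 3) to 0.038 (without WT female 2) for Cpt2, with the same 3 genes called each time. With the slow fibre covariate Pdk4 was at -0.76 (adjusted p = 0.062), Cpt1b at -0.0794, Acadl at -0.23, Acadvl at -0.21 and Hadha at -0.17, and the genes called fell from 4158 to 2015 (averaged) and from 2416 to 845 (females). The cause was not tested. Cpt2 was at 0.016 without TMM scaling, which moved the median of all genes from -0.012 to 0.056. Chosen after seeing the data, leaving out the 3 libraries with Ucp1 put Cpt2 at 0.0726, and leaving out WT male 1 too put Cpt2 at 0.11, Acadl at 0.32 (adjusted p = 0.0331) and Acadm at 0.0115.

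The count for the difference between sexes in the genotype effect was 1, against 80 with DESeq2, 11 without TMM, 0 with upper quartile scaling, 8 without a filter, 13 with the adipocyte covariate, 3 with the slow fibre covariate, 15 without the 3 libraries with Ucp1, 7 without these and WT male 1, and 0 to 23 when 1 library was left out (23 without Tg male 4, 5 without WT female 3, 3 without WT female 2, 2 without WT female 1 or 4, and 0 without Tg female 3, WT male 2 or 4, or Tg male 1, 2 or 3). Male against female WT called 3.67% of tested genes, 5.91% with DESeq2, and 2.11% (without WT male 2; 2.37% without WT male 4) to 5.25% when 1 library was left out. The averaged intervals of the 7 genes that were not called include differences in either direction. Those of all but Cpt1b include differences larger in size than the 0.26 of Pdk2, which was called.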
